A study of Homo sapiens with 4 samples.

Results

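The 8 genes described here are the human UHRF genes UHRF1 and UHRF2, the DNA methyltransferase genes DNMT1, DNMT3A and DNMT3B, and the TET genes TET1, TET2 and TET3, out of 20263 genes in the deposited count table. They were taken by name, and each was found once in the table and passed the filter on low counts. The set was selected on results of this same comparison, the CPM of these genes in YW-LF and DMSO, so its fold changes are given as a description and without a test. The libraries come from polyadenylated RNA of MDA-MB-231, a human breast cancer cell line of the triple-negative type with a mesenchymal character, after 24 h with YW-LF (n = 2 libraries) or with the solvent dimethyl sulfoxide, DMSO (n = 2 libraries). The series title presents YW-LF as a ribociclib derivative; ribociclib inhibits the cell cycle kinases CDK4 and CDK6. Cells of both groups grew in medium with 10% fetal bovine serum, and the labels state no dose.

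In mammalian DNA most methyl groups sit on the cytosine of CG pairs. Each round of replication leaves the new strand bare. UHRF1 binds such half-methylated sites behind the replication fork and brings in DNMT1, which copies the mark to the new strand. DNMT3A and DNMT3B set marks on unmethylated DNA. The TET enzymes oxidise methylcytosine, which allows the mark to be lost by dilution or to be cut out by the glycosylase TDG and replaced through base excision repair. UHRF2 shares the domain plan of UHRF1, but in mouse embryonic stem cells it does not take over the maintenance role of UHRF1.

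The YW-LF libraries held 36886858 to 40218240 counts and the DMSO libraries 34774542 to 37754168. Values are CPM, the usual per-library rate of counts, scaled by the trimmed mean of M-values (TMM), and 1 count corresponded to 0.0199 to 0.0324 CPM. The YW-LF libraries were less alike than the DMSO libraries: over 13816 genes, the SD of the log2 ratio of one replicate to the other was 1.24 in YW-LF and 0.605 in DMSO. The share of counts from mitochondrially encoded genes was 3.14% and 6.58% in YW-LF, against 8.68% and 21.7% in DMSO, and with those genes left out UHRF1 had a log2 fold change of -3.85 and DNMT1 of -1.35, against -3.86 and -1.36 with them. The 5 markers expected in this line (VIM, CD44, EGFR, CAV1 and AXL) summed to 4480 and 4420 unscaled CPM in YW-LF and to 7270 and 7210 in DMSO. VIM was the largest part, with 2650 in each YW-LF library and 3580 and 3680 in DMSO. EGFR was uneven in YW-LF, at 490 and 108, against 936 and 937 in DMSO, and CD44 overlapped between the groups. The 4 markers expected to be low (ESR1, PGR, CDH1 and EPCAM) summed to 10.2 and 6.21 in YW-LF and 11.7 and 10.0 in DMSO. The 4 fibroblast markers summed to 8.70 and 0.651 unscaled CPM in YW-LF and 7.80 and 7.02 in DMSO, with COL1A2 and DCN at 0 in every library. Their part in the results was not tested. The labels do not say that replicates were separate cultures, so the spread between them may be technical.

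Transcripts of the maintenance pair UHRF1 and DNMT1 were lower in YW-LF, for DNMT1 largely in replicate 1, and those of UHRF2 and DNMT3A were higher. The make-up of the UHRF pair and of the pair DNMT3A and DNMT3B differed between the groups. The share of DNMT1 among the DNMT genes overlapped. The groups did not overlap for 7 of the 8 genes, against 55.8% of all genes tested: in YW-LF 5 were below DMSO (UHRF1, DNMT1, DNMT3B, TET1 and TET2; 27.8% of all genes) and 2 above (UHRF2 and DNMT3A; 28.0% of all genes). For TET3 they overlapped. The median log2 fold change of the 8 was -1.03, against 0.06 over all genes tested. No gene in the table passed the quasi-likelihood test of edgeR after Benjamini-Hochberg adjustment (0.00% of 13816 genes; lowest adjusted p = 0.117), and so 0 of the 8 passed. At an unadjusted p under 0.05 there were 4 of the 8 (UHRF1, DNMT3B and TET1 lower, DNMT3A higher), against 9.01% of all genes on the lower side and 11.5% on the higher side. DESeq2 called 3 of the 8 (UHRF1, DNMT3B and TET1), against 10.6% of genes that it gave an adjusted p. Nothing is read from these counts, calls or the median, since the same comparison chose the genes. In bulk RNA such as this, less RNA per cell and fewer cells of a given type or state cannot be told apart.

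**Figure D1:**
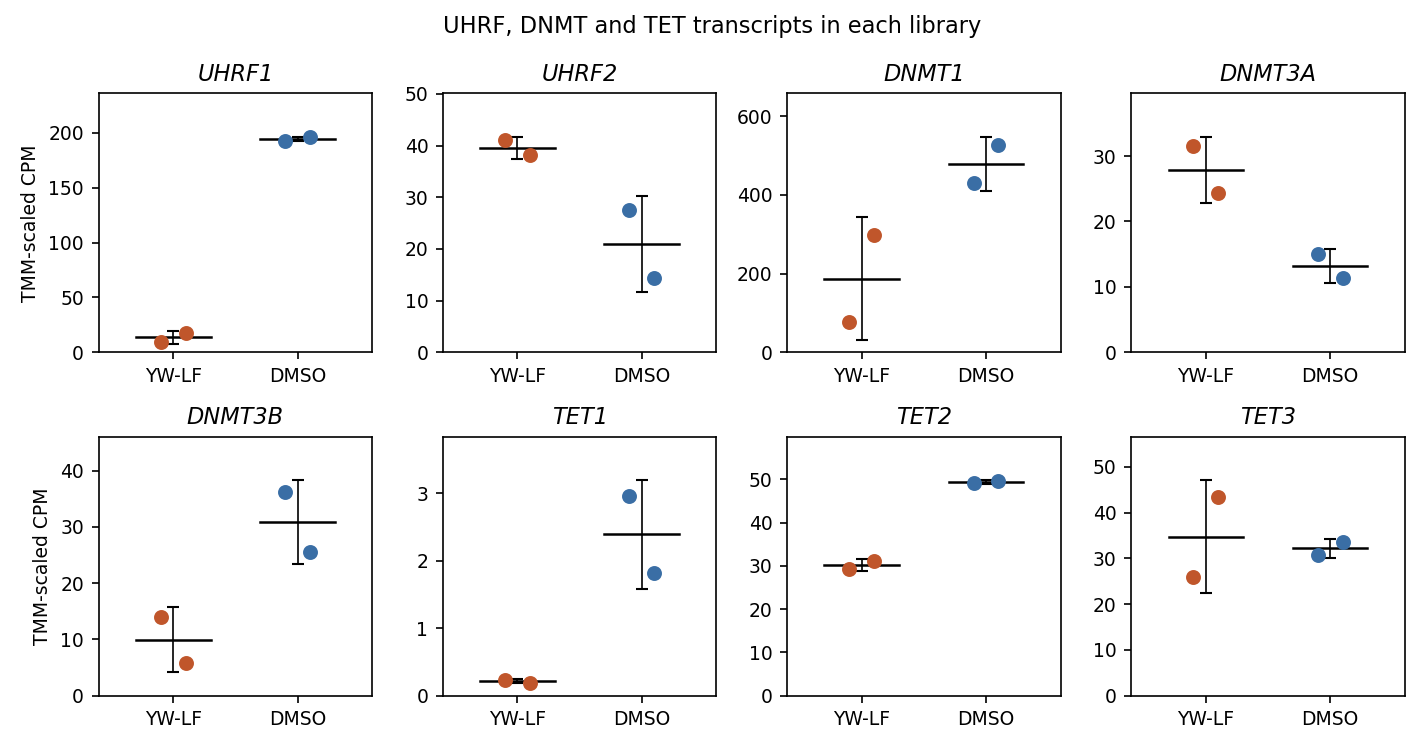
TMM-scaled CPM of the 8 genes (vertical axes, each from 0) in the 2 YW-LF and 2 DMSO libraries (horizontal axis) as points, with lines at group means and bars of SD (n = 2 each). UHRF1 shows the widest gap, TET3 the only overlap, and DNMT1 the widest spread between YW-LF libraries, at 76.2 and 297 CPM.

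UHRF1 (ENSG00000276043, chromosome 19, 4903080 to 4962154, plus strand, in the GENCODE 29 annotation of GRCh38, as for all gene positions here) had 9.17 and 17.7 CPM in YW-LF replicates 1 and 2, against 193 and 196 CPM in DMSO replicates 1 and 2. Both YW-LF libraries were low, and the DMSO libraries were close to each other. The group means were 13.4 ± 6.03 CPM in YW-LF and 195 ± 2.14 CPM in DMSO (mean ± SD, n = 2 each). The fitted log2 fold change was -3.86 (SE 0.48), a level 14.5-fold lower, and ranked 33rd from the bottom among the 13816 genes. It was -3.46 with YW-LF replicate 1 left out and -4.42 with YW-LF replicate 2 left out.

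UHRF2 (ENSG00000147854, chromosome 9, 6413151 to 6507054, plus strand) encodes the paralog, a ubiquitin ligase with the same kind of methyl-DNA binding domain. It had 41.1 and 38.1 CPM in YW-LF, against 27.5 and 14.3 CPM in DMSO. The YW-LF libraries agreed closely, and the DMSO libraries differed from each other by 0.94 on the log2 scale, as much as the fitted log2 fold change of 0.92 (SE 0.44). Without DMSO replicate 1 the value was 1.49 and without DMSO replicate 2 it was 0.51.

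The order of the 2 paralogs was opposite in the groups. The log2 ratio of UHRF1 to UHRF2 counts within a library was -2.16 and -1.10 in YW-LF, against 2.81 and 3.78 in DMSO. This ratio does not depend on scaling between libraries, and the group means differed by -4.93, while the SD between replicates was 0.75 in YW-LF and 0.68 in DMSO. Per kilobase of annotated exon, UHRF1 made up 14.1% and 25.5% of the UHRF level in YW-LF and 83.9% and 91.0% in DMSO. The summed UHRF level was 12.6 and 13.5 CPM per kb in YW-LF, against 44.8 and 41.9 CPM per kb in DMSO. UHRF2, at 10.4 ± 0.559 CPM per kb in YW-LF and 5.50 ± 2.46 CPM per kb in DMSO, was thus the larger part of a smaller total in YW-LF.

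DNMT1 (ENSG00000130816, chromosome 19, 10133345 to 10231286, minus strand), the maintenance methyltransferase, was the most abundant of the 8 per kilobase of exon in each of the 4 libraries. It had 76.2 and 297 CPM in YW-LF replicates 1 and 2, against 430 and 528 CPM in DMSO. The YW-LF libraries lay 1.96 apart on the log2 scale, further than replicate 2 lay from the DMSO libraries. The fitted log2 fold change of -1.36 (SE 0.67) therefore rested largely on YW-LF replicate 1. It was -0.69 without that library and -2.66 without YW-LF replicate 2. UHRF1 was also lower in YW-LF replicate 1 than in replicate 2, but by 0.94 on that scale.

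The promoters of UHRF1 and DNMT1 are shown because these partners were both low, beside those of UHRF2, which was higher, and TET1, which was low to a similar degree as UHRF1. Each window holds 250 bases before a transcription start annotated by RefSeq and 20 bases from the start on (GRCh38.p14, on the strand of the gene, first listed start of each gene). Capitals mark the words TTTGGCGC, TTTCCCGC, TTTCGCGC or TTTGCCGC, forms of the site recognised by E2F transcription factors, on either strand, so that a word on the opposite strand appears as its reverse complement.
UHRF1 promoter, chr19:4909251-4909520, plus strand: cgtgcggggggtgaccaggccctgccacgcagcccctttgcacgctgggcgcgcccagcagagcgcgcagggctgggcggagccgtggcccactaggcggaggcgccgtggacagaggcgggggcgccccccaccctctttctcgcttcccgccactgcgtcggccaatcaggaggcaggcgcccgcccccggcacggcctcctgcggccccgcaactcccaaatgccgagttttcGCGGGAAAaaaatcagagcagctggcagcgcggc
DNMT1 promoter, chr19:10194934-10195203, minus strand: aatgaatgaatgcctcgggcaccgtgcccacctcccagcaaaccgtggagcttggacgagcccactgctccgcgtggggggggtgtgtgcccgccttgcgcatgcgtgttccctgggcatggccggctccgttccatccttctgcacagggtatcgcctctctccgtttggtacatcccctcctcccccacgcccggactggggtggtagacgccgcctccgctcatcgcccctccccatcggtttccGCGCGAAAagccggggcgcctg
UHRF2 promoter, chr9:6412949-6413218, plus strand: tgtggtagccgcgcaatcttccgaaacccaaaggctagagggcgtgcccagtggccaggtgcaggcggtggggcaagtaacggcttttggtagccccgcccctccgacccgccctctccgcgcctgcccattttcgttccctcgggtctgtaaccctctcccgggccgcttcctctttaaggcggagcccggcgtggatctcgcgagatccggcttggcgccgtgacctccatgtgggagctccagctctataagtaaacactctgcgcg
TET1 promoter, chr10:68560087-68560356, plus strand: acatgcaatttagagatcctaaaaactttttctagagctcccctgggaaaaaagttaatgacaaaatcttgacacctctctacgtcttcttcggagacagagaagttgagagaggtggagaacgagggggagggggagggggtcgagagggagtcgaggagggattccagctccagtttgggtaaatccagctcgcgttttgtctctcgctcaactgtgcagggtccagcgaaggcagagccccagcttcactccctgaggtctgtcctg
A capitalised word lay 14 bases before the UHRF1 start, on the opposite strand, and another spanned the DNMT1 start, from 2 bases before it. All 8 genes matched RefSeq promoters, with 19 annotated starts in all, and 3 of these windows held such a word: 2 of the 3 for UHRF1 and the 1 for DNMT1. The remaining 16 windows, 1 of UHRF1 and all of those of the other 6 genes, held none, and 3.03% of all 35116 RefSeq windows of this length held a word. The only DNMT3B window, chr20:32779602-32779871, lay inside the gene, whose outermost GENCODE start at 32762385 was not searched. The outermost GENCODE starts of UHRF1 and DNMT1 were not searched either. The share of G and C was 73.3% to 81.1% over the UHRF1 windows and 67.4% in that of DNMT1, against 51.5% to 56.7% over those of TET1 and 64.4% in that of UHRF2. The words are matches of letters in these windows and not shown to be bound, and which start the cells used was not measured.

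DNMT3A (ENSG00000119772, chromosome 2, 25227855 to 25342590, minus strand) and DNMT3B (ENSG00000088305, chromosome 20, 32762385 to 32809356, plus strand), the enzymes that set new marks, lay in opposite directions. DNMT3A had 31.5 and 24.3 CPM in YW-LF, against 15.1 and 11.4 CPM in DMSO. Both YW-LF libraries were high, and the log2 fold change was 1.08 (SE 0.40).

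DNMT3B had 14.0 and 5.83 CPM in YW-LF, against 36.1 and 25.5 CPM in DMSO, with YW-LF replicate 2 the lowest. Its log2 fold change was -1.63 (SE 0.53), against -2.41 if YW-LF replicate 1 is left out and -1.15 if YW-LF replicate 2 is. The YW-LF libraries thus took opposite orders for the methyltransferases: replicate 1 was the lower for DNMT1 and replicate 2 the lower for DNMT3B.

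The log2 ratio of DNMT3B to DNMT3A counts was -1.17 and -2.05 in YW-LF, against 1.26 and 1.15 in DMSO. Per kilobase, DNMT3A held 49.3% and 64.3% of the DNMT3A and DNMT3B total in YW-LF and 15.3% and 16.2% in DMSO. That total was 5.96 and 3.53 CPM per kb in YW-LF, against 9.20 and 6.56 CPM per kb in DMSO, although DNMT3A itself was higher. For the summed level of the pair, the groups did not overlap with TMM scaling. In unscaled CPM per kb that sum was higher in YW-LF replicate 1 than in DMSO replicate 2. Beside DNMT1 both were minor transcripts: DNMT1 made up 70.1% and 93.9% of the summed level of the DNMT genes in YW-LF and 89.5% and 93.6% in DMSO. DNMT3L, a cofactor of these enzymes that has no catalytic activity, had 0 counts in both YW-LF libraries and 1 and 0 counts in DMSO, which is too few to compare.

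**Figure D2:**
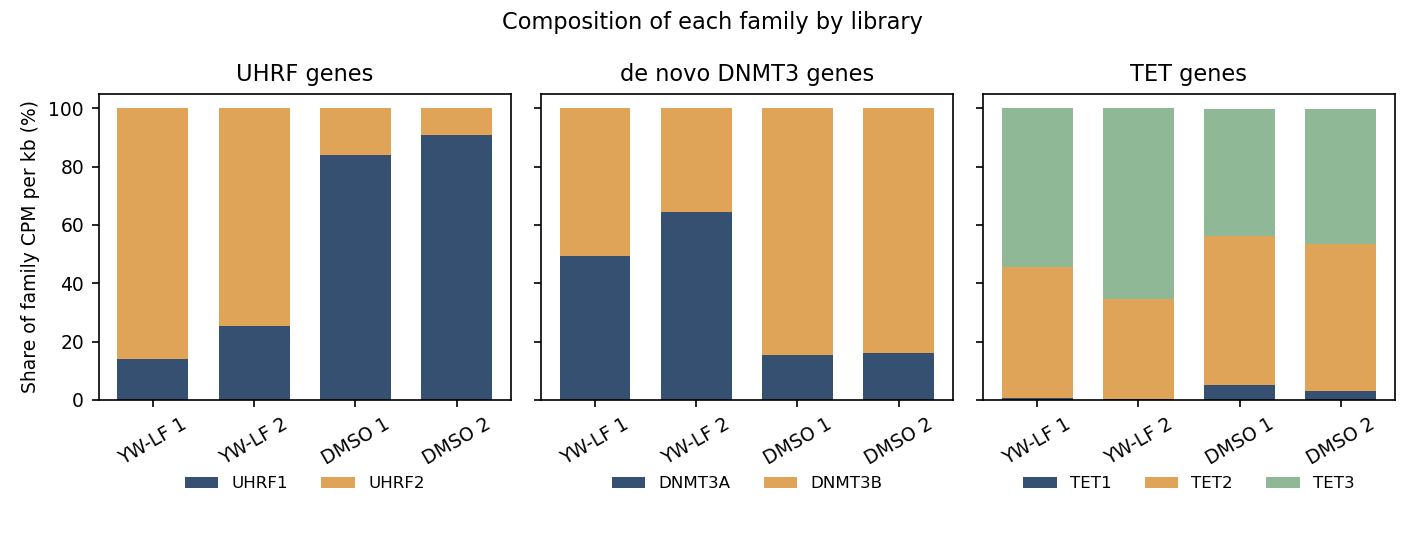
Share of each gene in the summed CPM per kilobase of exon of its family (vertical axis, percent) in each library (horizontal axis). UHRF1 held 14.1% and 25.5% in YW-LF and 83.9% and 91.0% in DMSO, and DNMT3A held 49.3% and 64.3% of the DNMT3 pair in YW-LF and 15.3% and 16.2% in DMSO.

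TET1 (ENSG00000138336, chromosome 10, 68560656 to 68694482, plus strand), an oxidase that binds unmethylated CG-rich DNA through a CXXC zinc finger, was the scarcest of the 8 in every library. It had 0.239 and 0.194 CPM in YW-LF, against 2.96 and 1.82 CPM in DMSO. These values rest on 12 and 6 counts in YW-LF (95% exact Poisson intervals 6.20 to 21.0 and 2.20 to 13.1 counts) and on 111 and 61 counts in DMSO (91.3 to 134 and 46.7 to 78.4), intervals that cover counting error only. The groups did not overlap in CPM. The counting intervals of each YW-LF library lay below those of each DMSO library, but they hold unscaled counts of a gene chosen on this comparison. Nothing is read from their separation. The log2 fold change was -3.44 (SE 0.77), a level 10.8-fold lower, and was the 50th lowest of all genes tested.

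TET2 (ENSG00000168769, chromosome 4, 105145875 to 105279816, plus strand), a TET enzyme without its own CXXC domain, had 29.2 and 31.1 CPM in YW-LF, against 49.1 and 49.7 CPM in DMSO. The replicates of each group were close to each other, and the log2 fold change was -0.71 (SE 0.34), a level 1.64-fold lower. Of all genes, 20.7% had a lower log2 fold change. TET3 (ENSG00000187605, chromosome 2, 73986404 to 74108176, plus strand) had 26.0 and 43.5 CPM in YW-LF, against 30.7 and 33.7 CPM in DMSO. One YW-LF library lay below both DMSO libraries and the other above them, and the log2 fold change of 0.11 (SE 0.40) turned to -0.32 without YW-LF replicate 2.

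TET2 and TET3 together made up nearly the whole TET level. TET2 held 44.8% and 34.2% in YW-LF and 51.0% and 50.2% in DMSO, TET3 held 54.6% and 65.5% in YW-LF and 43.7% and 46.6% in DMSO, and TET1 held 0.619% and 0.361% in YW-LF and 5.22% and 3.12% in DMSO. The log2 ratio of TET3 to TET2 counts was -0.17 and 0.48 in YW-LF, against -0.68 and -0.56 in DMSO. Summed over the family, the level was 4.15 and 5.78 CPM per kb in YW-LF and 6.11 and 6.29 CPM per kb in DMSO.

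In both DMSO libraries the order of levels per kilobase was DNMT1, UHRF1, DNMT3B, UHRF2, TET2, TET3, DNMT3A and TET1. Levels per kilobase divide by all annotated exon bases of a gene. Which transcripts the cells used was not measured, so the order between genes depends on that length. UHRF1, at 37.9 ± 0.416 CPM per kb, stood clear of its neighbours DNMT1 (87.8 ± 12.7) and DNMT3B (6.65 ± 1.62). DNMT3B was closer to UHRF2 (5.50 ± 2.46), at 7.79 against 7.24 CPM per kb in DMSO replicate 1 and 5.50 against 3.75 in DMSO replicate 2. In both YW-LF libraries DNMT1 came first (34.2 ± 28.7 CPM per kb), UHRF2 next (10.4 ± 0.559) and TET1 last (0.0233 ± 0.00339). The other 5 lay between 1.26 and 3.79 CPM per kb, in an order that differed between the YW-LF libraries. UHRF1 and DNMT3A, far apart in DMSO, had YW-LF means of 2.61 ± 1.17 and 2.60 ± 0.473 CPM per kb. UHRF1 was the lower in YW-LF replicate 1 (1.78 against 2.94) and the higher in YW-LF replicate 2 (3.44 against 2.27).

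**Figure D3:**
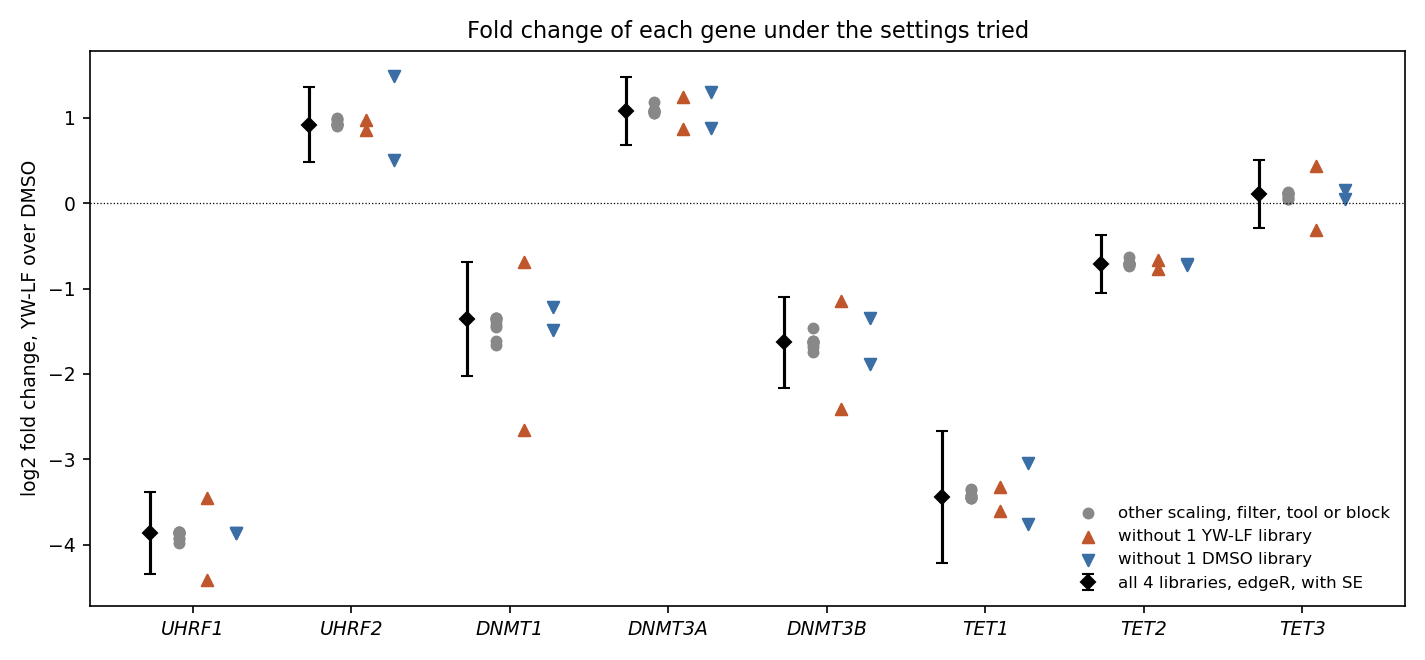
Fitted log2 fold change of YW-LF over DMSO (vertical axis) for each gene (horizontal axis): black diamonds with SE bars use all 4 libraries, grey circles other scalings, filters, tools or the replicate block, orange triangles leave out 1 YW-LF library and blue triangles 1 DMSO library. DNMT1 moved the most, between -2.66 and -0.69, and only TET3 crossed 0.

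Genes whose profile over the 4 libraries was most like that of a member were found by the root mean square difference of log2 CPM, each centred on its DMSO mean, among 10808 genes with a mean of at least 5 CPM. For UHRF1 these were LFNG (a glycosyltransferase that modifies Notch receptors; difference 0.230), ZNF114 (a zinc finger gene; 0.416), CLSPN (claspin, a replication checkpoint adaptor; 0.516) and CCNE2 (cyclin E2, a partner of CDK2 at the start of replication; 0.546). LFNG had 0.955 and 1.33 CPM in YW-LF, against 21.2 and 16.2 CPM in DMSO. On the same measure, but without the minimum of 5 CPM, the member nearest to UHRF1 was TET1 (0.736), followed by DNMT1 (1.65) and DNMT3B (1.74). TET1 lies below that minimum, and its distance rests on 12 and 6 counts in YW-LF.

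The nearest genes to DNMT1 were TYMS (thymidylate synthase, which supplies thymidine nucleotides, 0.0476) and BANK1 (a signalling scaffold known from B cells, 0.0576). CCBE1 (a secreted protein of lymphatic vessel growth, 0.0928) and SFPQ (a nuclear RNA-binding protein, 0.0992) came next. Of all genes, 7.44% had a lower log2 fold change than DNMT1 and 0.232% a lower one than UHRF1. The distances are therefore not set against those for UHRF1. TYMS had 28.4 and 104 CPM in YW-LF, against 159 and 182 CPM in DMSO, and so shared both the lower level and the gap between YW-LF libraries. With 4 libraries such likeness is a description of these profiles.

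The list of 16 maintenance partners, drawn up around UHRF1 and DNMT1, also held DNMT3L, the cofactor of DNMT3A and DNMT3B, which was not tested. Of the 15 tested, YW-LF was below DMSO without overlap in 12 and above it in 0, against 27.8% and 28.0% of all genes. The median log2 fold change was -0.84, against 0.06 over all genes tested. This list and those that follow were chosen with earlier results of these data known, so their shares, calls and medians are descriptions only. CHAF1B, a subunit of the chromatin assembly factor that places histones behind the fork, had 9.17 and 12.1 CPM in YW-LF, against 41.8 and 62.7 CPM in DMSO (log2 fold change -2.30, SE 0.41). CDCA7, which activates the remodeller HELLS, had 5.27 and 7.64 CPM in YW-LF, against 34.0 and 29.7 CPM in DMSO (-2.30, SE 0.42). HELLS, which opens nucleosomes for methylation, had 22.4 and 29.8 CPM in YW-LF, against 105 and 99.7 CPM in DMSO (-1.97, SE 0.37). For these 3 genes the YW-LF libraries were close to each other and far below both DMSO libraries. PCNA, the clamp that tethers DNMT1 to the fork, was lowest in YW-LF replicate 2 and had 63.9 and 21.8 CPM in YW-LF, against 216 and 215 CPM in DMSO (-2.33, SE 0.57). The 3 tested genes whose groups overlapped were SUV39H1, a histone methyltransferase (-0.57), USP7, which removes ubiquitin from UHRF1 and DNMT1 (-0.25), and the histone deacetylase HDAC1 (-0.11). None of the 15 passed edgeR adjusted over all genes (7 were lower, against 9.01% of all genes, and 0 higher, against 11.5%, at an unadjusted p under 0.05). DESeq2 called 5 lower (PCNA, HELLS, CDCA7, CHAF1A and CHAF1B), where it called 10.6% of all genes in either direction.

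Genes of proteins that read methylated DNA, or repress with those that do, lay on both sides. Of 10 genes, all tested, 3 lay below DMSO in both YW-LF libraries (MBD2, MBD3 and TRIM28; 27.8% of all genes) and 3 above (MBD1, ZBTB4 and SETDB1; 28.0% of all genes), shares close to those of all genes, with a median log2 fold change of -0.10. MBD2, which recruits the NuRD repressor complex to methylated CG sites, had 51.3 and 49.6 CPM in YW-LF, against 104 and 141 CPM in DMSO (log2 fold change -1.28, SE 0.36). MBD3, the alternative subunit of that complex, had 85.2 and 45.4 CPM in YW-LF, against 160 and 177 CPM in DMSO (-1.37, SE 0.43). SETDB1, a histone methyltransferase with a methyl-CpG binding domain, had 47.2 and 107 CPM in YW-LF, against 40.2 CPM in each DMSO library (0.94, SE 0.47), so that its high mean came mostly from YW-LF replicate 2. TRIM28, MBD1 and ZBTB4 had log2 fold changes of -0.49, 0.88 and 0.56. None of these genes passed edgeR over all genes. At an unadjusted edgeR p under 0.05, 2 were lower, against 9.01% of all genes, and 0 higher, against 11.5%. DESeq2 called MBD2 and MBD3 lower, against 10.6% of all genes in either direction.

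Of 16 genes that act downstream of the TET enzymes or direct them 15 were tested, of which YW-LF was above DMSO without overlap in 8, against 28.0% of all genes, and below it in 2, against 27.8%. Their median log2 fold change was 0.33, but the 2 genes that DESeq2 called were both lower. TDG, which excises oxidised methylcytosine, had 54.5 and 82.1 CPM in YW-LF, against 38.9 and 19.8 CPM in DMSO (log2 fold change 1.22, SE 0.46). GADD45A, a stress-induced protein linked to active demethylation, had 51.2 and 93.0 CPM in YW-LF, against 26.1 and 30.3 CPM in DMSO (1.35, SE 0.42). Both were highest in YW-LF replicate 2. The 2 low genes were NEIL3, a glycosylase, with 6.17 and 6.09 CPM in YW-LF, against 20.9 and 29.5 CPM in DMSO (-2.04, SE 0.42), and PARP1, a sensor of DNA breaks, with 69.8 and 145 CPM in YW-LF, against 375 and 342 CPM in DMSO (-1.74, SE 0.49). None passed edgeR over all genes. At an unadjusted edgeR p under 0.05, 3 were higher, against 11.5% of all genes, and 2 lower, against 9.01%. DESeq2 called NEIL3 and PARP1 lower and 0 higher, against 10.6% of all genes in either direction.

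The supply of the methyl donor S-adenosylmethionine had no common direction. Of 15 tested genes, 4 lay below DMSO in both YW-LF libraries, a share near the 27.8% of all genes, and 2 above, against 28.0%, and the median log2 fold change was 0.11. MAT2A, which makes the donor, had 141 and 84.2 CPM in YW-LF, against 363 and 408 CPM in DMSO (log2 fold change -1.78, SE 0.44). SHMT1, a folate enzyme of the cytosol, had 9.37 and 10.7 CPM in YW-LF, against 28.3 and 29.5 CPM in DMSO (-1.52, SE 0.38). Both YW-LF libraries were far below both DMSO libraries for both genes. None passed edgeR over all genes. At an unadjusted edgeR p under 0.05, 2 were lower, against 9.01% of all genes, and 1 higher, against 11.5%. DESeq2 called MAT2A and SHMT1 lower, against 10.6% of all genes in either direction.

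Enzymes that set the level of 2-oxoglutarate, the co-substrate of TET oxidation, or of its competitors likewise lay on both sides. Of 14 genes, 3 were below DMSO in both YW-LF libraries (27.8% of all genes), 2 were above (28.0%) and 9 overlapped, where 55.8% of all genes did not overlap. SDHD, a subunit of succinate dehydrogenase, had 99.2 and 148 CPM in YW-LF, against 68.0 and 36.9 CPM in DMSO (log2 fold change 1.24, SE 0.45). IDH3A, a subunit of mitochondrial isocitrate dehydrogenase, had 29.6 and 24.5 CPM in YW-LF, against 52.3 and 50.7 CPM in DMSO (-0.93, SE 0.35). D2HGDH, which clears a competitor of 2-oxoglutarate, had 13.2 and 12.4 CPM in YW-LF, against 7.08 and 8.01 CPM in DMSO (0.77, SE 0.42). None passed edgeR over all genes. At an unadjusted edgeR p under 0.05, 1 was higher, against 11.5% of all genes, and 1 lower, against 9.01%. DESeq2 called 0, against 10.6% of all genes.

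**Figure D4:**
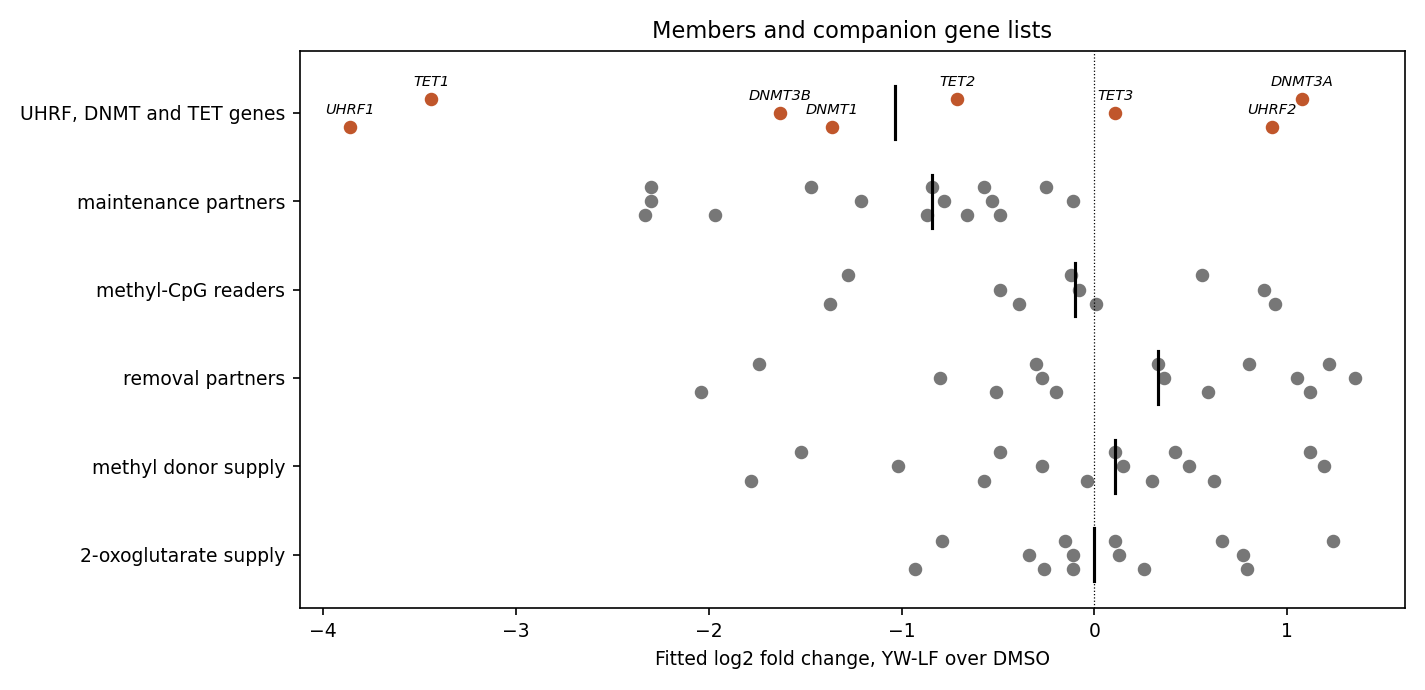
Fitted log2 fold change of YW-LF over DMSO (horizontal axis) for the 8 genes (orange, named) and for the tested genes of 5 companion lists (grey), 1 point a gene, with black bars at medians. The maintenance partners lie wholly left of 0 (median -0.84), and the other lists lie on both sides. All lists were chosen with earlier results of these data known.

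Germline genes that somatic cells keep silent through promoter methylation were nearly absent in both groups. Of 20 such genes, 9 had no count in any library and 1, MAEL, a factor of transposon silencing, passed the filter, with 1.37 and 0.680 CPM in YW-LF, against 1.79 and 2.27 CPM in DMSO. The other 19 genes together had 64 and 29 counts in YW-LF, against 7 and 17 counts in DMSO. DDX4, a germ cell RNA helicase, had 21 and 6 counts in YW-LF and 0 in both DMSO libraries, and TEX101, a testis surface protein, had 2 and 4 counts in YW-LF and 0 in both DMSO libraries; these names were chosen after their values were seen. SSX1 had 12 counts in YW-LF replicate 1 and 0 in the other libraries. Members of the MAGEA, SSX, GAGE and CTAG1B families have near-identical copies, and their counts are uncertain. DNA methylation itself was not measured.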

How the data were processed

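The table the authors deposited holds raw counts: every value is a whole number and library sums differ. How reads were aligned, counted and assigned to strands was not given in the sources used here. For the genome, mouse builds (GRCm38, mm10) stand in the submitters' processing notes, but the identifiers are human Ensembl genes, and counts were used by identifier (19761 of 20263 matched a symbol). A second deposited table repeats the DMSO counts (40526 of 40526 values identical). Its 2 further columns match no label and were not used.

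Counts were fitted with edgeR 4.0.16 in R 4.3.3 (filterByExpr, TMM, quasi-likelihood F-test without covariates, all 4 libraries), with Benjamini-Hochberg adjustment over 13816 genes and a threshold of 0.05. The SE is the log2 fold change divided by the square root of F; log2 CPM used a prior count of 2. Exon lengths are unions over GENCODE 29 basic transcripts. No other annotated gene shares exon bases with the 8 genes there. DESeq2 1.42.0 and limma 3.58.1 (voom), other scalings and filters, removal of mitochondrially encoded genes, a replicate block and leaving out each library were alternatives. Members and lists were chosen with earlier results of these data known. Genes named were the 8, the 3 of lowest p per companion list, the 4 nearest profiles to UHRF1 and DNMT1, and PCNA, HELLS and TDG. Others are named after their values were seen. Some results under these rules are not reported here.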

Additional observations from a re-analysis of the deposited data

How the results depend on the processing

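The number of genes past the threshold was 0 in edgeR with all libraries and stayed 0 with 3 other scalings, the stricter count filter, limma-voom, and without mitochondrially encoded genes. It was 275 with a filter of a total count of at least 1, 1437 in DESeq2 and 331 with the replicate block. Companion list genes past the threshold numbered 0, and 3, 11 and 4 under those same alternatives. With 1 library left out the counts ranged from 64 (without DMSO replicate 2) to 5882 genes (without YW-LF replicate 1) and from 0 to 28 companion genes; the lone library is then assumed to vary like the other pair. Same-numbered libraries deviated together with a correlation across genes of 0.0368. With 1 replicate difference per group, this value cannot decide whether the numbers pair the samples, and the labels do not say. Under the block the log2 fold change of UHRF1 was -3.93 and that of DNMT1 -1.66. Of 103 fold changes of members under the 13 alternatives, 102 kept their sign; TET3, which ranged from -0.32 to 0.43 with 1 library left out, was below 0 only without YW-LF replicate 2. With at least 10 counts in all libraries TET1 was not tested. The number of members whose groups do not overlap was 7 under the scalings and 6 of the 7 left under that filter. The median log2 fold change of all genes was 0.06, and 0.16 with library size as the only scaling. Depth limits TET1 and the germline genes most.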
